A study of Mus musculus with 2 samples.

Results

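The endothelial cells of the developing mouse eye cup were described at e13.5, in midgestation, in 2 libraries of single cells. A barcode, the tag that marks the transcripts of 1 droplet, was counted as endothelial where at least 1 unique molecular identifier (UMI, the tag of 1 captured transcript) was found for 4 or more of 7 genes: *Pecam1*, *Cdh5*, *Kdr*, *Emcn*, *Egfl7*, *Cldn5* and *Plvap*. Barcodes first had to hold 200 or more genes and at most 15% of UMIs from mitochondrial genes. The members were thus chosen by measured values, namely which of these 7 genes had a UMI. Of 11893 barcodes that passed, 238 met the rule, 122 of 5519 in the control and 116 of 6374 in the mutant library. The control library was made from *Myrf fl/fl* eye cups and the mutant library from *Rx>cre Myrf fl/fl* eye cups, so both carried the floxed *Myrf* allele and only the mutant carried the Cre transgene. Each library pooled 3 samples, the cornea, lens and optic nerve had been removed, and the eye cups were dissociated with papain. With 1 library per genotype there was no spread between replicates. No test between genotypes was made, and every 95% interval below covers counting error only, not the differences between embryos or between library preparations.

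Endothelial cells line blood vessels and are joined by VE-cadherin (*Cdh5*), PECAM1 and claudin 5. They arise from mesoderm, outside the eye field in which the *Rx* transgene drives Cre. At this age the eye is supplied by the forming choriocapillaris, a fenestrated bed beneath the retinal pigment epithelium (RPE), and by the hyaloid vessels of the vitreous, whereas the retina itself has no vessels yet. Fenestrated capillaries carry PLVAP on their openings, while capillaries of the brain and of the later retina build a barrier under Wnt and norrin signalling.

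*Myrf*, the gene removed by Cre, had 0 UMIs over all 122 control barcodes and 2 over all 116 mutant ones. A count of 0 allowed a level of up to 1.58 CPM (UMIs of a gene per 1000000 UMIs of its class) in the control, by a limit of 3 counts. In all other barcodes its level was 4.14 CPM in the control and 1.53 CPM in the mutant library. The reads came from the 3′ end of transcripts and need not cover the deleted part of the gene.

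Endothelial barcodes made up 2.21% of passing control barcodes (95% exact binomial interval 1.84 to 2.63) and 1.82% of passing mutant ones (1.51 to 2.18). Endothelial barcodes held 1902642 and 1915206 UMIs in all, with medians of 14935.5 and 15242.5 UMIs, against medians of 11356 and 11164.5 in the other barcodes. Median mitochondrial shares were 3.93% and 3.76%. Haemoglobin transcripts made up 0.0315% and 0.0934% of endothelial UMIs, against 6.25% and 12.0% in the other barcodes. The same barcode sequence passed in both libraries 67 times, and none of these was an endothelial barcode in either.

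The barcodes fell into a main body with few rule genes and a separate group with many. All 7 genes were found in 72 control and 67 mutant barcodes, whose median depths were 22555 and 23131 UMIs. Just inside the rule, with exactly 4 genes, were 16 and 12 barcodes, with median depths of 4417 and 2359 UMIs. Just outside it, with exactly 3 genes, were 39 and 42 barcodes of 13719 and 12453.5 UMIs. A list of 24 other surface and junction genes, such as *Tie1* and *Esam*, gave 1236 and 2606 CPM in the barcodes with 4 rule genes, and 236 and 283 CPM in those with 3. Of the barcodes with 3 rule genes, 27 of 39 and 29 of 42 also carried 4 or more markers of another cell class. So did 7 of 16 and 1 of 12 of those with 4 rule genes. Among barcodes with 0 rule genes, 2368 of 3576 and 2915 of 4201 carried such markers. For the list of 24 genes, the barcodes with 5 rule genes gave 3724 and 1357 CPM, and those with 7 reached 3885 and 3720 CPM. The mutant barcodes with 5 rule genes included 1 with mast cell genes and 1 with muscle genes, described below. Since the 24 genes were read in the same cells as the rule genes, this is a description and no test.

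**Figure D1:**
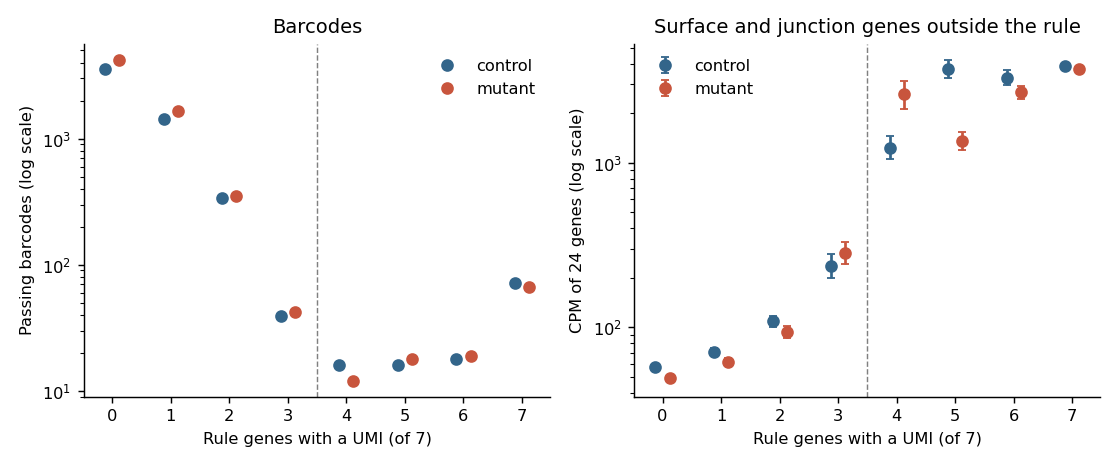
Left, the number of passing barcodes (y axis, log scale) by how many of the 7 rule genes had a UMI (x axis), in the control (blue) and the mutant library (red). Right, the summed level of 24 surface and junction genes outside the rule in the same barcodes, in CPM on a log scale, with exact Poisson 95% intervals, and the dashed line marks the rule. Barcodes are fewest near 4 rule genes, and the level steps up from 236 and 283 CPM at 3 genes to 1236 and 2606 CPM at 4. At 5 genes it is 3724 CPM in the control and 1357 CPM in the mutant library, so the mutant rise is not steady.

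The genes of the rule chose the barcodes, so their levels are given as a description. *Cdh5* stood at 479.9 CPM (95% interval 449 to 512) in control and 441 CPM (411 to 471) in mutant endothelial barcodes, against 1.00 and 0.536 CPM in the other barcodes. *Pecam1*, an adhesion protein of the cell border, stood at 166 and 144 CPM against 0.871 and 0.893 CPM. *Cldn5*, a tight junction protein, reached 464 and 555 CPM, and *Plvap* reached 446 and 384 CPM. *Emcn* (endomucin), a sialomucin of capillary and venous surfaces, was at 829.9 and 949 CPM, and *Egfl7*, a secreted protein of the vessel wall, at 1413 and 1311 CPM. *Kdr*, the main receptor for VEGF-A, was the least separate, with 235 and 213 CPM in endothelial barcodes and 15.6 and 15.2 CPM elsewhere.

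When each barcode was thinned to 3000 UMIs, which 103 barcodes in each library were deep enough for, *Emcn* was found in 86.4% of control and 88.3% of mutant endothelial barcodes. *Pecam1* was found in 37.9% and 31.1%. Without thinning, the shares were 95.1% and 98.3% for *Emcn* and 84.4% and 82.8% for *Pecam1*. Red blood cell barcodes, thinned alike and of median depths of 27621.5 and 27716.5 UMIs before it, held no UMI of either gene in 84 control and 174 mutant barcodes. Both genes belong to the rule, so these shares are a description of the members that it chose.

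Among genes with at least 100 UMIs in endothelial barcodes, the 20 with the highest level over the other barcodes were led by *Robo4*, an endothelial guidance receptor. Each gene was ranked by the lower of its folds in both libraries. *Robo4* was found at 50.5 CPM in control and 42.3 CPM in mutant endothelial barcodes, against 0.0987 and 0.0687 CPM in the others. Surface and junction genes of the 20 were *Tie1* (146 and 119.6 CPM), a receptor of the angiopoietin pathway, *Esam* (309.6 and 285 CPM) and *Icam2* (276 and 269.9 CPM), both adhesion proteins, and *Myct1*. *Flt1*, the decoy receptor for VEGF-A, stood at 157 and 129 CPM and *Aplnr*, the apelin receptor, at 251 and 238 CPM. The SoxF transcription factors *Sox7*, *Sox17* and *Sox18*, which act in vessel formation, were all among the 20, with *Sox18* at 177 and 155 CPM. The other members of the 20 were *Tmem252*, *Fam167b*, *Mmrn1* (multimerin), *Gimap4* and *Gimap5*, *Col15a1* (a collagen of vessel basement membranes), *Gpihbp1* (which carries lipoprotein lipase across capillaries), *Ihh*, D030007L05Rik and C130074G19Rik. Their levels in the other barcodes were at most 1.23 CPM, that of *Icam2* in the control.

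Promoters of 16 of these 27 genes, counting those of the rule, were given in RefSeq for GRCm38.p6, as 250 bases before and 50 after each start. ETS factors such as *Erg* and *Fli1*, which bind a GGAA core, are known to act at endothelial promoters, so the letters AGGAAG were searched on both strands. They were held by 10 of 18 promoters (55.6%), against 35.4% of all 32851 promoters in the table. Promoters of 3 genes with a match and of *Ihh*, to which a later result turns, are shown with the matches in capitals, the reverse complement CTTCCT included. The letters occurred 1 time in *Robo4* and 2 times each in *Flt1* and *Tie1*, and a match is a description of the letters and not of a bound site. The regions are chr9:37401722-37402021 on the plus strand for *Robo4*, and on the minus strand chr5:147725962-147726261 for *Flt1*, chr4:118489800-118490099 for *Tie1* and chr1:74951623-74951922 for *Ihh*.
Robo4: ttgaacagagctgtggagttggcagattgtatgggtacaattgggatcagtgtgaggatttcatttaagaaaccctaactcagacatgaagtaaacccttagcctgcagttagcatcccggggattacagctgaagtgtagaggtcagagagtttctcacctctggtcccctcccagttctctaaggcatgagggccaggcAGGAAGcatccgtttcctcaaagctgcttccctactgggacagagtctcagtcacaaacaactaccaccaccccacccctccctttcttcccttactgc
Flt1: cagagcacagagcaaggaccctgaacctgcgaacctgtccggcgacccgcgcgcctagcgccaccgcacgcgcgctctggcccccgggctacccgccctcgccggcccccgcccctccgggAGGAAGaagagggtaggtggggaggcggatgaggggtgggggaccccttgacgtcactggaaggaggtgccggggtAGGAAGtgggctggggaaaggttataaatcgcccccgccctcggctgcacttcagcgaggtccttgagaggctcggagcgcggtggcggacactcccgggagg
Tie1: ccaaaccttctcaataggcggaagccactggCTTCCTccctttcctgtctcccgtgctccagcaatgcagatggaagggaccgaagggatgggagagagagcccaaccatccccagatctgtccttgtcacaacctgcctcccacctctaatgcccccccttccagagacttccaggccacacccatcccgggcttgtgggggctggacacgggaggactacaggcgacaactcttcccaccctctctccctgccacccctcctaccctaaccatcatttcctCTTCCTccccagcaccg
Ihh: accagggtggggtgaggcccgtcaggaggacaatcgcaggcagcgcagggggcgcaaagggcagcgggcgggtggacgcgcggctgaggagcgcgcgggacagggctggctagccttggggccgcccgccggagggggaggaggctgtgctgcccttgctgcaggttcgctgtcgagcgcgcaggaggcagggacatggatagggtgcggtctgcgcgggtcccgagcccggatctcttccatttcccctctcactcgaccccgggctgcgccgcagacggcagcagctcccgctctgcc

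Of 13585 genes with at least 100 UMIs over all passing barcodes, 448 (3.3%) were 4-fold or more higher in endothelial than in other barcodes in both libraries. Among the 23 junction and surface genes tested in this way, 22 were, the exception being *Jam2*. Of 22 endothelial transcription factors 16 were, including *Lmo2* (282 and 248 CPM), a bridging factor of blood and vessel development, and *Fli1* (63.6 and 66.3 CPM). *Tcf15*, a basic helix-loop-helix factor of endothelium in several tissues, stood at 662 and 581 CPM against 5.67 and 5.21 CPM. All 6 caveola genes passed, with *Cavin3* at 510.3 and 434 CPM and *Cav1*, the coat protein of caveolae, at 64.6 and 60.05 CPM. Of 13 basement membrane genes 6 passed, led in UMIs by *Col4a1* (604 and 491 CPM) and *Col18a1* (475 and 386 CPM). None of 10 cell cycle genes passed, and *Mki67*, a marker of dividing cells, stood at 92.5 and 65.8 CPM against 75.9 and 63.6 CPM in the other barcodes.

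**Figure D2:**
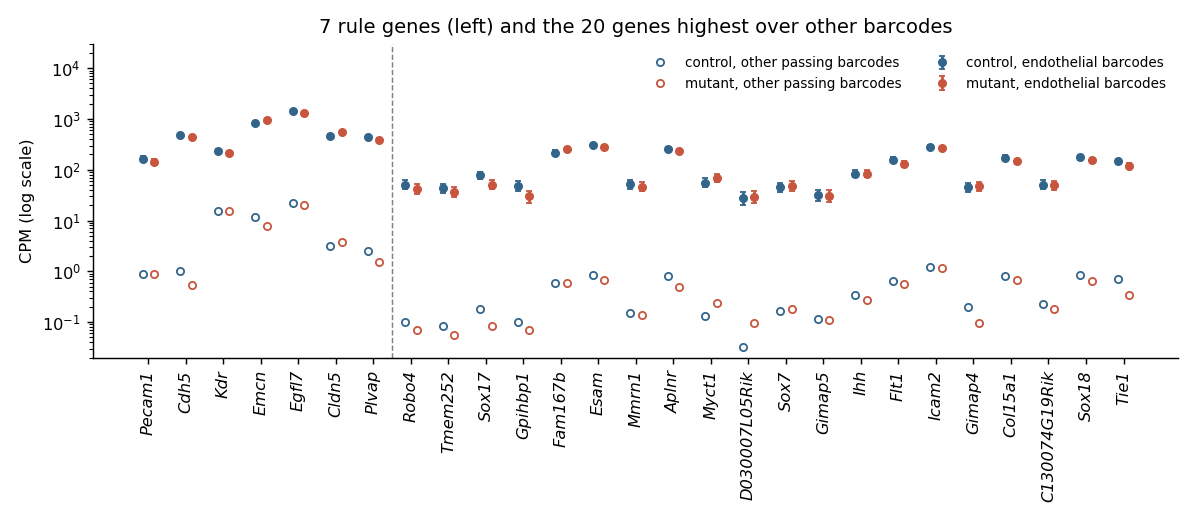
Level in CPM (y axis, log scale) of the 7 rule genes, left of the dashed line, and of the 20 genes with the highest fold over other barcodes, in the control (blue) and the mutant library (red). Filled points are endothelial barcodes with exact Poisson 95% intervals, and open points are all other passing barcodes. Filled points lie above open ones for all 27 genes in both libraries, by the least for Kdr.

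The endothelial barcodes carried receptors of the main vessel pathways, while the ligands listed ranged from near the limit of detection to well above it. Besides *Kdr* and *Flt1*, the VEGF receptor *Flt4* was found at 34.7 and 41.2 CPM and the coreceptors *Nrp1* and *Nrp2* at 94.6 and 83.0 CPM in the control. *Vegfa*, the ligand that tissues send to vessels, had 14 and 7 UMIs in endothelial barcodes, at 7.36 and 3.65 CPM, below the 24.3 and 20.1 CPM of the other barcodes. Of the 9 genes in the list of VEGF ligands and receptors, 8 had at least 10 UMIs over both libraries and 6 at least 50. Some other VEGF ligands thus had more UMIs than *Vegfa*. Of the angiopoietin pathway, the receptor *Tek* was at 69.4 and 70.5 CPM, and the ligands *Angpt1* (2 and 6 UMIs) and *Angpt2* (1 and 6 UMIs) were near the limit of detection. *Acvrl1* and *Eng*, receptors for BMP9 and BMP10, were at 92.0 and 159.8 CPM in the control and 82.0 and 131 CPM in the mutant library. Of 16 secreted signals listed, *Tgfb1* had the most UMIs in endothelial barcodes, 440 and 445, or 231 and 232 CPM against 10.2 and 8.69 CPM elsewhere. *Pdgfb*, which recruits pericytes, stood at 49.9 and 48.6 CPM against 0.789 and 1.09 CPM.

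Genes of the blood-retina and blood-brain barrier were split. Of 12 barrier and transport genes with at least 100 UMIs over all passing barcodes, 1 was 4-fold or more over other barcodes in both libraries. Over all genes that share was 3.3%. The median log2 ratio of the 12 over other barcodes, by the lower of the 2 libraries, was -0.092, so most are not particular to endothelial barcodes. The glucose transporter *Slc2a1* was at 198 and 147 CPM, the efflux pump *Abcg2* at 93.0 and 75.2 CPM and the tight junction scaffold *Tjp1* at 102 and 75.7 CPM. In contrast, *Mfsd2a*, the lipid carrier that limits transcytosis at the barrier, had 1 UMI in each library. *Slco1c1* and *Slco1a4*, organic anion carriers of brain capillaries, had none in either, which allowed up to 1.58 and 1.57 CPM. *Abcb1a*, a drug efflux pump, had 5 and 1 UMIs and *Ocln* (occludin) had 1 in each.

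The receptor complex through which norrin and Wnt7 act on vessels was present at low levels. *Fzd4* was found at 30.5 and 31.9 CPM and its partner *Tspan12* at 32.6 and 31.3 CPM. The coreceptor *Lrp5* had 30.5 and 15.1 CPM, and *Adgra2*, the Wnt7 coreceptor also called GPR124, had 33.1 and 17.2 CPM. Among the readouts listed for this pathway, *Axin2* had 5 and 0 UMIs, *Apcdd1* 1 and 0, *Notum* 0 and 1, and *Lef1* 20 and 29. Those counts were at or near the limit of detection except for *Lef1*. Of the 14 receptor and target genes listed, 11 had at least 10 UMIs over both libraries. These included the further targets *Nkd1*, *Tnfrsf19* and *Sox17*, so low counts did not hold for all readouts.

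Of genes linked to fenestrated capillaries, *Plvap* was described above. *Igfbp3*, a growth factor binding protein, was at 306 and 214 CPM, but 1 control barcode held 33.3% of the control UMIs. *Rgcc* was at 126 and 160.3 CPM. *Car4*, a carbonic anhydrase of the mature choriocapillaris, had no UMI in either library, and *Esm1* had 10 and 6. Of lymphatic genes, *Flt4* and *Mmrn1* were found as above, but *Prox1*, which sets lymphatic identity, had 4 and 13 UMIs, of which 1 mutant barcode held 84.6% of those in the mutant. *Lyve1* had 1 and 0 and *Pdpn* 7 and 3. *Stab1*, a scavenger receptor, was at 66.7 and 59.0 CPM, whereas its relative *Stab2* had 0 and 1 UMIs. The selectins *Sele* and *Selp*, which capture leukocytes on inflamed vessels, had no UMI in either library.

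**Figure D3:**
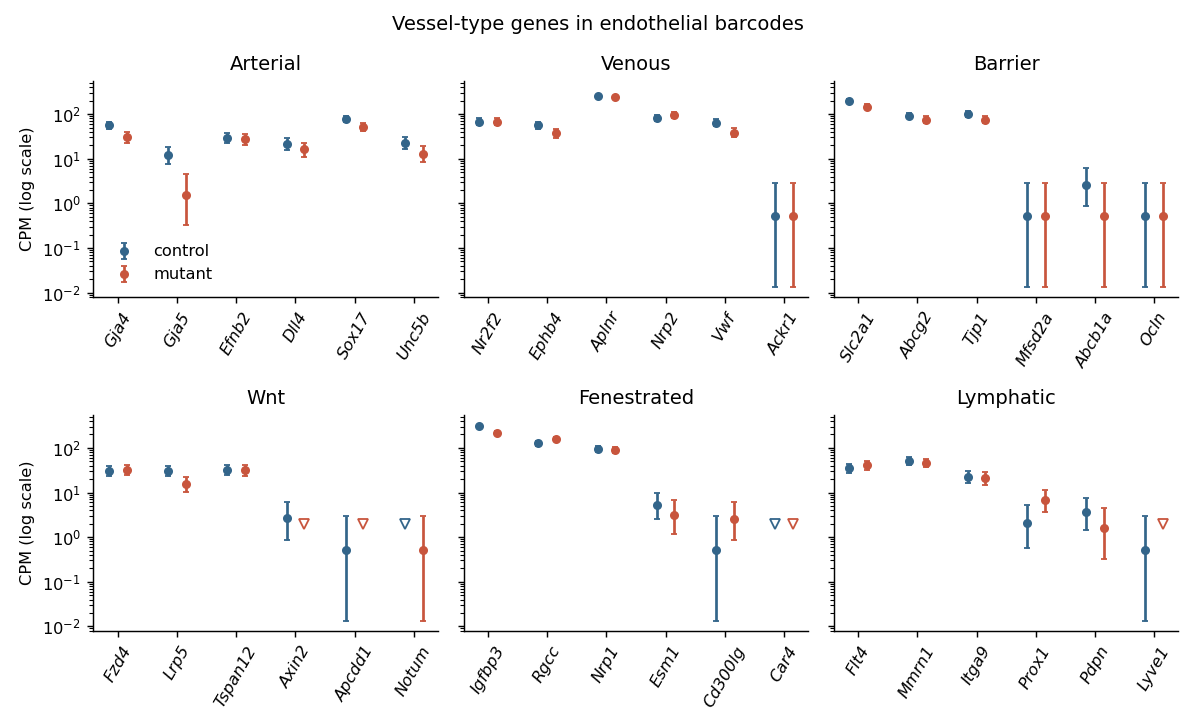
Level in CPM (y axis, log scale) of 6 genes each linked to arteries, veins, the blood-retina barrier, Wnt signalling, fenestrated capillaries and lymphatic vessels, in control (blue) and mutant (red) endothelial barcodes, with exact Poisson 95% intervals. Open triangles mark genes without a UMI at the upper end of their interval. Slc2a1, Abcg2 and Tjp1 lie between 75.2 and 198 CPM, while Mfsd2a and Ocln, with 1 UMI each per library, lie at 0.526 and 0.522 CPM.

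Artery and vein genes were both present, and without thinning many barcodes held genes of both kinds. Among vein genes, *Nr2f2* (COUP-TFII), a nuclear receptor that sets venous identity, was at 67.3 and 67.4 CPM and *Vwf* at 64.6 and 38.6 CPM. Among artery genes, *Sox17* was at 77.8 and 50.6 CPM. The arterial gap junction gene *Gja4* (connexin 37) was at 55.7 and 30.3 CPM and was found in 23 of 122 and 18 of 116 barcodes, and 1 barcode held 45.3% of its control UMIs. Barcodes with 2 or more artery genes and those with 2 or more vein genes overlapped. Both were met by 47 control and 44 mutant barcodes of median depth 22788 and 22781 UMIs, artery genes alone by 16 and 4, vein genes alone by 36 and 44, and neither by 23 and 24 of median depth 3988 and 3618.5. Barcodes with artery genes alone had median depths of 2920.5 and 4814 UMIs. The overlap thus went with depth and does not show whether the 2 kinds of genes lie in separate cells. For this reason the shares were taken after thinning to 3000 UMIs.

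After thinning, 7.77% (3.41 to 14.7) of control and 9.71% (4.75 to 17.1) of mutant barcodes held 2 or more of 10 artery genes. For 8 vein genes these shares were 32.0% (23.2 to 42.0) and 25.2% (17.2 to 34.8). The intervals of both libraries overlapped for each range. Tip cell genes, which mark the leading cells of sprouts, gave 8.74% and 7.77%, and cell cycle genes gave 50.5% (40.5 to 60.5) and 43.7% (33.9 to 53.8). These classes are ranges of a count and not cell types. Exactly 1 gene, just short of the limit, was held for the artery list by 25 and 24 barcodes, for the vein list by 39 and 53, for the tip cell list by 37 and 35 and for the cycling list by 20 and 27. The thinned barcodes in the artery range held a median of 1 vein gene in both libraries, and those in the vein range held a median of 0 artery genes. Before thinning, artery genes met the limit in 51.6% and 41.4%, vein genes in 68.0% and 75.9%, tip cell genes in 52.5% and 44.8%, and cycling genes in 73.0% and 73.3%.

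*Ihh* (Indian hedgehog) was the secreted signal among the 20 genes highest over other barcodes. Hedgehog ligands act on neighbouring cells through PTCH1, and *Ihh* is known to be made by the endothelium of the choroid, next to the RPE. The gene lies at chr1:74945315-74951672 (GRCm38, minus strand). It was found at 83.0 CPM (70.6 to 97.0) in control and 83.5 CPM (71.1 to 97.5) in mutant endothelial barcodes, against 0.345 and 0.275 CPM elsewhere. Barcodes with an *Ihh* UMI numbered 47 of 122 and 43 of 116, with median depths of 21498 and 21488 UMIs, against 7570 and 8464 UMIs for those without. Thinned to 3000 UMIs, its shares of barcodes came to 21.4% (13.9 to 30.5) and 19.4% (12.3 to 28.4), and no thinned red blood cell barcode held 1. Both *Ihh* and *Gja4* were found in 7 and 7 barcodes, *Ihh* alone in 40 and 36, and *Gja4* alone in 16 and 11. *Ihh* was thus found in 7 of 23 control and 7 of 18 mutant barcodes with *Gja4*, much as among all members, 47 of 122 and 43 of 116.

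Genes were then sought that accompanied *Ihh* in both libraries. This split, and the genes named from it, were chosen after values had been seen, and the genes were ranked in barcodes without markers of another class, so no test was made. *Foxl2*, a forkhead factor known from the ovary and the eyelid, had 62 UMIs in the control barcodes with *Ihh* and 9 in those without. In the mutant library it had 64 and 17. Scaled to the UMIs of each side, these were log2 ratios of 2.65 (95% interval 1.76 to 3.97) and 2.06 (1.33 to 2.99). *Cyp26b1*, an enzyme that breaks down retinoic acid, had ratios of 2.11 and 2.53, and *Rarb*, a retinoic acid receptor, had 0.83 and 1.35. *Ramp3*, a partner of the adrenomedullin receptor, had 1.56 and 1.28, *Col13a1* had 1.58 and 1.21, and *Tcf15* had 0.84 and 1.10. All 6 were also higher with *Ihh* among barcodes of 10000 or more UMIs, where the sides had medians of 23469.5 and 21483 UMIs among control barcodes and of 23434.5 and 22588.5 among mutant ones.

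*Six3* (chr17:85613608-85629302, GRCm38), a transcription factor of the eye field and forebrain, also followed *Ihh*. It was found in 69 control and 58 mutant endothelial barcodes, at 144 and 132 CPM, against 158 and 147 CPM in the other barcodes, where retinal progenitors express it. Barcodes with *Ihh* held 196 and 199 of its UMIs and those without held 78 and 53, giving log2 ratios of 1.31 and 2.10. With all members counted, other retinal progenitor genes went the other way. *Rax* had ratios of -2.52 and -2.05 and *Sfrp2* had -2.49 and -3.89. A single barcode held 22.4% of the control and 29.6% of the mutant UMIs of *Rax*. For *Sfrp2* these shares were 21.3% and 49.5%. Without barcodes that carried 4 or more markers of another class, the ratios of *Six3* were 1.94 and 2.21, those of *Rax* -0.51 and -0.35, and those of *Sfrp2* -0.26 and -0.54. *Six6* then had -1.99 and 0.65, from -2.25 and -2.11 with all members, so the opposite direction did not hold throughout. All 4 genes are among the 8 progenitor markers by which barcodes were left out.

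Genes that were lower in barcodes with *Ihh* included *Gap43*, a growth-associated protein best known from axons, with log2 ratios of -2.93 and -2.45. *Phgdh*, the first enzyme of serine synthesis, had -1.46 and -1.97, and the D-type cyclin *Ccnd2* had -1.07 and -1.03. The vein gene *Nr2f2* was lower too (-0.93 and -0.68), as were the artery genes *Gja4* (-3.30 and -1.13) and *Sox17* (-0.80 and -0.41). Among barcodes of 10000 or more UMIs the ratios of *Gja4* were -2.91 and -0.29, and 1 barcode held 45.3% of its control UMIs. There *Gap43* had -2.95 and -2.50, *Nr2f2* -1.12 and -0.76, and *Sox17* -0.66 and -0.59. *Plvap* differed little, by 0.30 and 0.45.

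**Figure D4:**
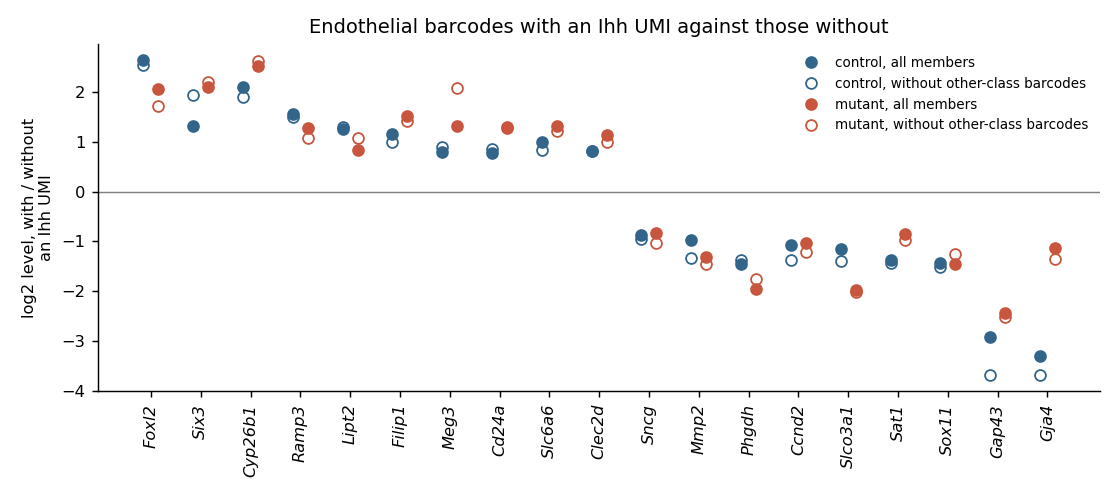
Log2 ratio (y axis) of the level in endothelial barcodes with an Ihh UMI over that in barcodes without, for 10 genes with higher and 9 with lower levels, in the control (blue) and the mutant library (red). Filled points are all endothelial barcodes and open points leave out those with 4 or more markers of another class. The 2 libraries lie on the same side of 0 for each gene because the genes were chosen for it, from 2.65 for Foxl2 down to -3.30 for Gja4 in the control.

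Barcodes with *Gja4* were a smaller group, 23 and 18, split in the same way after values had been seen. The artery factor *Sox17* had log2 ratios of 1.69 and 1.41 with *Gja4* over without. *Sat1*, a polyamine enzyme, had 2.78 and 1.89, and *Glul*, glutamine synthetase, 1.20 and 1.48. Lower with *Gja4* were the mitosis genes *Ube2c* (-1.15 and -1.06) and *Prc1* (-1.06 and -1.67). *Nr2f2* had -1.36 and -0.47. In the control library, barcodes with *Gja4* had a median depth of 5879 UMIs against 15927 without.

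Between the libraries, the endothelial barcodes differed in few genes by size. Of 4214 genes with at least 100 UMIs in endothelial barcodes, 9 (0.214%) were 2-fold or more lower and 12 (0.285%) 2-fold or more higher in the mutant library, and 6 of the 12 were haemoglobin genes. The median log2 ratio of mutant over control was -0.043 over these genes. The ratios of the rule genes ranged from -0.22 (-0.36 to -0.072) for *Plvap* to 0.26 (0.13 to 0.39) for *Cldn5*. These genes chose the members in both libraries, so how alike their levels were is in part set by the rule. *Emcn* was at 0.19 (0.095 to 0.29) in endothelial barcodes and -0.60 in the others. No count here is a number of changed genes, since counting error is the only error that could be estimated.

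The genes lower in the mutant library were largely those of other cell classes. The 8 with the largest falls in level were *Dkk2* (-3.21) and *Twist1* (-2.20), known from periocular mesenchyme, the retinal progenitor genes *Rorb* (-1.85), *Fgf15* (-1.70), *Rax* (-1.63), *Six6* (-1.62) and *Sfrp2* (-1.42), and *Crabp2* (-1.04), a retinoic acid carrier. Their levels in endothelial barcodes were below those in other barcodes, for *Dkk2* 47.8 and 4.70 CPM against 189 and 196 CPM. Among endothelial barcodes, 13 of 122 control and 5 of 116 mutant ones carried 4 or more of 8 retinal progenitor markers, and 7 and 3 carried 4 or more of 8 mesenchyme markers. The 8 retinal progenitor markers summed to 679 CPM in control and 329 CPM in mutant endothelial barcodes, and the 8 mesenchyme markers to 213 and 113 CPM. The progenitor sum, of 1292 and 631 UMIs, includes *Six3*, which followed *Ihh* as described above. Endothelial barcodes with *Ihh* held 196 and 199 UMIs of *Six3*, so that sum is not a level of progenitor transcripts alone. No marker of either list was at 0 in either library.

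Markers of other classes were rarer. Red blood cell markers, of which 7 of 8 were in the files, gave 0.526 and 2.09 CPM, with 6 and 4 of the 7 at 0. Macrophage markers gave 17.3 and 49.1 CPM, with *Cx3cr1*, *C1qa* and *Ptprc* at 0 in the control and *Csf1r* at 0 in the mutant library. Pericyte markers gave 43.6 and 43.9 CPM, mostly from *Abcc9*, and *Higd1b* was at 0 in both. Neuron markers gave 97.2 and 109.6 CPM, RPE markers 15.2 and 8.35 CPM, ectoderm markers 1.05 and 3.65 CPM, and platelet markers 18.4 and 7.83 CPM. In all, 20 control and 11 mutant endothelial barcodes carried 4 or more markers of 1 of 8 classes, platelets not counted among them.

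Without those 20 and 11 barcodes, *Rorb* stood at 0.067, *Fgf15* at 0.72, *Rax* at 0.17, *Six6* at -0.35 and *Sfrp2* at -0.76 on the log2 scale. *Dkk2* stood at -1.74 and *Twist1* at -1.03, on few UMIs. *Fgf15*, *Rax*, *Six6*, *Sfrp2* and *Twist1* were themselves among the markers by which barcodes were left out, so part of their shift is built into this filter, whereas *Rorb* and *Dkk2* were not. Of 3637 genes then tested, 2 were 2-fold or more lower and 7 higher, and 7 of these 9 (77.8%) were among the 21 found with all barcodes (33.3% of the 21). Levels in the other barcodes differed by 0.053 for *Dkk2*, 0.11 for *Twist1* and -0.049 for *Rorb*.

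The genes higher in the mutant library turned in part on single barcodes. All 376 UMIs of *Cpa3*, a protease of mast cells, came from 1 mutant barcode of 66519 UMIs, while the control had none, so its level was at least 124.5-fold higher when set against the limit of 3 control counts. That barcode also held 22 UMIs of *Cma1*, a mast cell chymase, 14 of *Kit*, 154 of *Srgn* and 203 of *Lgals1*, and met the rule with 5 genes that had 11 UMIs together. All 152 mutant UMIs of *Actc1*, an actin of muscle, came from another barcode, against 1 UMI in the control. That mutant barcode held 59 UMIs of *Myog* and 28 of *Myod1*, factors of skeletal muscle. Without the *Cpa3* barcode the log2 ratios were 0.26 for *Srgn* (1.72 with it) and 0.52 for *Lgals1* (1.505).

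Other genes were higher over many barcodes. *Wdfy1* (chr1:79702262-79776143), an endosomal protein, had 21 UMIs in 18 control and 116 in 58 mutant endothelial barcodes, a log2 ratio of 2.40 (1.78 to 3.20), and its ratio in the other barcodes was 2.68. *Usp39*, a splicing factor, was at 21.5 and 42.3 CPM in 30 and 49 barcodes, with a ratio of 0.96 (0.41 to 1.55) against -0.17 in the others. In endothelial barcodes of female embryos alone its ratio was 0.010, and in those of male embryos 1.34. *Riox1*, a ribosomal oxygenase, was at 19.97 and 38.1 CPM in 29 and 51 barcodes, with a ratio of 0.91 (0.35 to 1.54) against -0.16.

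**Figure D5:**
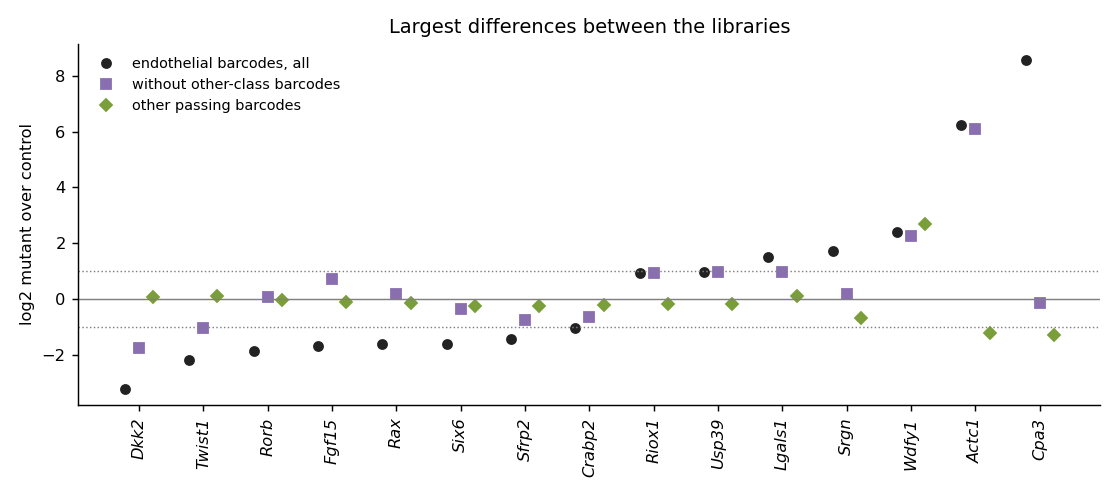
Log2 ratio of mutant over control (y axis) for the 8 genes with the lowest and 7 of those with the highest ratio in endothelial barcodes. Black circles are all endothelial barcodes, purple squares leave out those with 4 or more markers of another class, green diamonds are all other passing barcodes, and dotted lines mark 2-fold. Wdfy1 is high in all 3. Cpa3 is at 8.55 with all endothelial barcodes and has 0 UMIs when barcodes of other classes are left out. Its square at -0.16 thus reflects only the class totals and the added UMI.

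Gene lists were compared by their counts and medians over members with at least 10 UMIs in endothelial barcodes. Of all 10496 such genes, 508 (4.84%) were 2-fold or more lower and 211 (2.01%) higher in the mutant library, and their median log2 ratio was -0.077. Of these genes 6462 were lower by any amount, so the counts of lower genes below are to be read against 6462 of 10496. All 9 artery genes counted were lower, with a median of -0.61, and 1 of them, *Gja5* (connexin 40), was lower by 2-fold or more, with 23 and 3 UMIs, of which 1 control barcode held 60.9% of the control ones. *Gja4* had a ratio of -0.87 (-1.37 to -0.40), from 106 and 58 UMIs. A single barcode held 45.3% of its control UMIs and another 31.0% of its mutant ones, so this ratio leans on few barcodes. *Sox17* had a ratio of -0.61 (-1.004 to -0.24), *Unc5b*, a netrin receptor, of -0.80 and *Dll4*, the Notch ligand of arteries, of -0.40. In barcodes of female embryos alone the artery median was 0.29 over 5 genes, and in those of male embryos -1.30 over 7, as the pools held both. These medians rest on 34 control and 18 mutant female barcodes and on 28 and 39 male ones. Sex was undecided for 60 and 59 endothelial barcodes, and a difference between the sexes was not tested. Without barcodes of another class the artery median was -0.82, below a limit of 20000 UMIs -0.14 with 5 of 8 genes lower, and at a mitochondrial limit of 5% -0.29.

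All 7 flow response genes were lower, with a median of -0.53. *Klf2*, a factor induced by laminar flow, was at 364 and 253 CPM in 60 and 62 barcodes, a ratio of -0.53 (-0.70 to -0.36), and *Klf4* was at 26.3 and 12.5 CPM, a ratio of -1.04. *Piezo1*, a channel that senses stretch, had -0.53. Among female embryos alone, on 34 control and 18 mutant barcodes, the median of the list was 0.066 over 6 genes. Among male embryos, on 28 and 39 barcodes, it was -0.56 over 6. With all embryos, the flow response median was -0.39 without barcodes of another class and -0.42 at a mitochondrial limit of 5%. It was -0.44 with 3 or more rule genes and -0.59 with 5 or more. Of 10 Notch pathway genes 9 were lower (median -0.42), with *Jag1* at -1.36, *Hes1* at -0.72 and *Nrarp*, a Notch target, at -0.55. The Notch median turned to 0.14, with 4 of 10 genes lower, below a limit of 20000 UMIs, and was -0.14 with 3 or more rule genes. All 6 caveola genes were lower (median -0.29), as were 12 of 13 basement membrane genes (median -0.30), with *Col4a1* at -0.30, against -0.26 in other barcodes. All 10 cycling genes were lower too, by a median of -0.29, with *Mki67* at -0.49 and at -0.26 in other barcodes. Among female embryos alone 2 of 10 cycling genes were lower and the median was 0.28, and among male embryos it was -0.76.

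The other lists had medians between -0.31 and -0.038. Of 6 vein genes 3 were higher and 3 lower (median -0.038). Endothelial transcription factors had a median of -0.10 over 21 genes, with 9 higher, and junction and surface genes -0.20 over 24, with 6 higher. The VEGF list had -0.18 over 8 genes, angiopoietins and apelin -0.073 over 4, BMP and TGF-beta -0.17 over 15, and Wnt -0.20 over 11. Barrier and transport genes had -0.30 over 9, with 8 lower, fenestrated and choroidal genes -0.30 over 4, and leukocyte adhesion genes -0.31 over 5, with all 5 lower. Scavenger and lipid uptake genes had -0.12 over 9, lymphatic genes -0.13 over 6, secreted signals -0.26 over 14 and tip cell genes -0.22 over 7. The medians of the vein, transcription factor, VEGF, angiopoietin, BMP and TGF-beta, fenestrated, scavenger, secreted signal and tip cell lists were above 0 under at least 1 alternative each, at most 0.32 for fenestrated genes in female embryos, as was that of leukocyte adhesion where 1 gene was left to count. Of the tip cell list, *Kcne3* was higher, 24.2 and 42.8 CPM, a ratio of 0.81 (0.29 to 1.38), and *Cxcr4* was lower, with 24 and 4 UMIs, of which 1 control barcode held 70.8% of the control ones. *Fabp4*, a fatty acid carrier, had 10 and 53 UMIs, and 1 mutant barcode held 58.5% of the mutant ones.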

How the data were processed

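Single cells of mouse eye cups at e13.5 were measured in 2 libraries with the 10X Genomics 3′ assay. The authors deposited UMI counts per gene and barcode for called cells, made with Cell Ranger 7.1.0 on mm10 according to the submitters' processing notes, with no normalization. The header of the count files names software version 3.0.0, and whether intronic reads were counted is not given in the sources used here. The limits of 200 genes and 15% mitochondrial UMIs follow the study's methods. The 2000 UMIs that they also set as a maximum per cell served as an alternative only.

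The libraries held 6039 and 6754 barcodes with 63483835 and 75228861 UMIs, of which 5519 and 6374 barcodes passed. UMIs were summed over the barcodes of a class in each library and given as CPM of the class total with exact Poisson intervals, and shares of barcodes with Clopper-Pearson intervals, at a level of 95%. Before a log2 ratio was taken, each sum was raised by 1 UMI, and its interval was the exact binomial one given both sums (scipy 1.17.1 and numpy 2.4.6). PCR and droplet capture are not covered by these intervals.

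Doublets were left in. Scrublet (scanpy 1.11.5, expected rate 5%) marked 68 (1.23%) and 65 (1.02%) barcodes, among them 2 endothelial ones in each library, and leaving them out was an alternative. Endothelial barcodes with 4 or more markers of another class were left out in another. Gene coordinates were those of GENCODE for GRCm38, the assembly of mm10, and promoter sequences those of RefSeq.

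The members, gene lists and tests were chosen with earlier results of these data known. The genes named were the 7 of the rule, the 20 highest over other barcodes, the 8 lowest and 8 highest between the libraries among genes of 100 UMIs or more (leaving out sex-linked, ribosomal protein, mitochondrial and haemoglobin genes), those of the lists, and *Myrf*. A few genes that these rules name are not reported here. The split by *Ihh* and *Gja4*, its genes and the contents of the *Cpa3* and *Actc1* barcodes were chosen after values were seen. The list gene *Figf* was read under its current symbol *Vegfd*. Alternatives were other rules and limits for barcodes, female and male embryos apart (by *Xist* and Y-linked genes), totals without mitochondrial, haemoglobin and ribosomal protein genes, a minimum of 50 UMIs, means of log values, and other depths and limits for ranges. With 1 library per genotype, no p-value was computed.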

Additional observations from a re-analysis of the deposited data

Results flagged for a closer look

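The following genes had a ratio of mutant over control in endothelial barcodes on the opposite side of 0 from that in all other passing barcodes, with both counting intervals clear of 0. With 1 library per genotype, none of these differences was tested. *Dkk2* was at -3.21 on the log2 scale in endothelial barcodes and at 0.053 in the others. *Twist1* was at -2.20 and 0.11. *Cpa3* was at 8.55 and -1.29, and *Actc1* at 6.25 and -1.22, with all mutant UMIs of each in 1 barcode. *Srgn* was at 1.72 and -0.69, and at 0.26 without the *Cpa3* barcode. *Usp39* was at 0.96 and -0.17, and *Riox1* at 0.91 and -0.16, over 49 and 51 mutant barcodes. *Emcn*, a gene of the rule that set members apart from other barcodes, was at 0.19 and -0.60. In endothelial barcodes of female embryos alone, *Usp39* was at 0.010, *Riox1* at 0.76 and *Emcn* at -0.26. In those of male embryos they were at 1.34, 1.37 and 0.32.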

How the results depend on the processing

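Depth limits statements on genes of few UMIs, and 1 library per genotype limits all comparisons. No paired analysis was possible because each genotype had 1 library and no test was made. Of 190 values of main results recomputed under an alternative, 128 moved by less than their counting interval or, for counts, less than 1.5 times, and 62 moved further, and the cause was not tested. With 3 or more rule genes the endothelial shares were 2.92% and 2.48%, the genes 2-fold or more lower in the mutant numbered 27 in place of 9, and the lists with a median past 0.5 numbered 1 in place of 2, and *Fgf15* (0.73), *Rax* (0.54), *Six6* (0.12) and *Sfrp2* (0.19) turned to higher. With 3 or more of 5 rule genes 27 genes were lower and 0 lists past 0.5, and these 4 genes stood at 0.18, 0.51, 0.085 and 0.054. With 5 or more, 3 genes were lower. Without barcodes of another class 2 genes were lower, 7 in place of 12 higher and 1 list past 0.5, and *Rorb* (0.067), *Fgf15* (0.72) and *Rax* (0.17) changed sign. *Cpa3* then had 0 UMIs, so its value of -0.16 reflects only the class totals and the added UMI. A mitochondrial limit of 5% left 0 lists past 0.5 and a mutant arterial share of 2.41%. A limit of 20000 UMIs gave shares of 1.58% and 1.32%, 1 gene lower and 5 higher, and control venous and tip cell shares of 21.8% and 16.4%. It left 0 UMIs of *Cpa3* and *Actc1*, whose value of -0.088 again reflects only the totals. A limit of 2000 UMIs left 10 control and 7 mutant endothelial barcodes (0.836% and 0.629%), 58 genes 4-fold or more over other barcodes in place of 448, and 1 gene lower and 1 higher. There *Twist1* was at 0.46, *Fgf15* at 1.46, *Sfrp2* at 0.78 and *Srgn* at -0.54, on 0, 1, 7 and 1 UMIs, too few to give a direction. No barcode of that limit was deep enough for the ranges. In female embryos the shares were 1.72% and 1.14%, 255 genes were over other barcodes, the mutant arterial, venous and tip cell shares were 18.8%, 37.5% and 0% of 16 barcodes, and *Sfrp2* (0.36) and *Crabp2* (0.33) changed sign. In male embryos the mutant share was 2.19%, 287 genes were over other barcodes, 3 were higher in the mutant and 4 lists past 0.5, the control venous share was 22.2% and the mutant arterial share 2.63%, and *Lgals1* (-0.071) changed sign. *Cpa3* and *Actc1* had 0 UMIs in male embryos, so their value of -0.46 reflects only the totals. Without the *Cpa3* barcode, an alternative added after seeing the data, and with totals without mitochondrial, haemoglobin and ribosomal protein genes, 1 list was past 0.5. A minimum of 50 UMIs gave 51 genes lower and 29 higher. Differences of mean log values, which understate folds, passed the same limits for 12 genes over other barcodes, 0 lower, 0 higher and 0 lists. Thinning to 2000 UMIs gave a control venous share of 19.6%, and to 5000 UMIs venous shares of 60% and 55.7% and a mutant cycling share of 56.8%. With 1 or more genes per range the arterial, venous, tip cell and cycling shares were 32.0%, 69.9%, 44.7% and 69.9% in the control and 33.0%, 76.7%, 41.7% and 69.9% in the mutant library, and with 3 or more the venous, tip cell and cycling shares were 8.74%, 0.971% and 37.9% in the control and all 4 shares were 2.91%, 8.74%, 1.94% and 29.1% in the mutant. Leaving out barcodes marked by Scrublet moved none of these values past those limits.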
